A study of Mus musculus with 2 samples.

Results

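The positions described here are the called m6A sites that lie in protein-coding genes whose annotated protein-coding transcripts have no introns. Transcripts of other types in these genes were not considered. A gene was taken as single-exon when every protein-coding transcript annotated for it in GENCODE on the mouse GRCm38 build had exactly 1 exon, with the mitochondrial chromosome left out. Over the 17 deposited lists, 1775 of 160430 unique positions (1.11%) fell in such genes. They lay in 195 of the 1349 single-exon coding genes (14.5%), among 21938 coding genes in all. By comparison, 9876 of 20322 multi-exon genes (48.6%) held a listed position on an RRACH motif of their principal transcript, so single-exon genes were listed less often (12.7% to 16.4%, against 47.9% to 49.3%).

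The lists come from ONT direct RNA sequencing (DRS) of poly(A) RNA from mouse embryonic stem cells of 129 background, either wild type (WT) or with Mettl3 knocked out (KO). In the KO cells exons 5 to 7 of Mettl3, the catalytic subunit of the m6A methyltransferase, were replaced on both alleles by puromycin and hygromycin resistance genes. Each condition had 1 library and no replicates. Of the 10 tools, 7 have both a WT and a KO list. Tombo, Nanom6A, MINES, m6Anet, Epinano and ELIGOS were run on either library by itself, whereas xPore fits both libraries jointly, so its WT and KO lists do not come from separate runs. The other 3 (DRUMMER, Nanocompore and DiffErr) contrasted the libraries and gave 1 comparison list each.

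Scores, rates and coverage are not part of the lists used here. The read depth at a position is therefore unknown, and conditions could not be tested against each other. Sites of 1 library are not replicates, and all intervals are 95% intervals that cover counting error only. A position missing from a KO list cannot be told apart from a position with too few KO reads, and fewer cells expressing a gene cannot be told apart from less RNA per cell. In Mettl3 itself, which is a multi-exon gene, exons 1 to 7 held 9 positions in WT lists and 0 in KO lists, and exons 8 to 11 held 4 and 5. Of 12 embryonic stem cell markers, 10 had positions in WT lists and 10 in KO lists, against 1 and 2 of 5 fibroblast markers. Of 4 primitive endoderm markers, Sox17 alone was listed, with 12 positions in WT and 0 in KO.

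m6A is laid down by the METTL3-METTL14 complex on the adenosine of RRACH motifs (R is a purine and H any base but G), most often near stop codons and in long last exons. The exon junction complexes that are deposited upstream of spliced junctions are known to keep the methyltransferase away from nearby sequence. The protein-coding transcripts of single-exon genes, as annotated, are not spliced and carry no such junctions. Many of these genes are short and encode histones, immediate early factors or other regulators of transcription, and some are retrotransposed copies of spliced mRNAs.

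The sequences below are 17 sites chosen by the number of lists that held them, each as 21 bases of GRCm38 on the strand of the gene with the RRACH motif in capitals. The first 8 are the positions listed by most tools in WT or in the comparison and by no KO list.
Exosc6, chr8:111057472-111057492, plus strand: taggagatGGACCcagtgcag
Rrs1, chr1:9546467-9546487, plus strand: gccggcaaGGACCttcgggca
Sox2, chr3:34651226-34651246, plus strand: gacctccgGGACAtgatcagc
Jund, chr8:70699820-70699840, plus strand: atcgacatGGACAcgcaagaa
Exosc6, chr8:111057533-111057553, plus strand: gagaggatGGACCaggggact
Ccnq, chr11:78750627-78750647, minus strand: tgaggcatGGACCattgcagg
Ier5l, chr2:30472778-30472798, minus strand: ccttctagGGACCcccgaggg
Rpp25, chr9:57504818-57504838, plus strand: tgaggacaGGACCgcctgaga

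The next 4 sites, in Epop and Jund, were chosen after their values were seen, because all 10 tools listed them in WT or in the comparison while KO lists held them too.
Epop, chr11:97627811-97627831, minus strand: ttggtgatGGACAaaccggtt
Epop, chr11:97627836-97627856, minus strand: aaagaaagGGACAgagggacg
Epop, chr11:97627955-97627975, minus strand: agatccaaGGACTggcgtccg
Jund, chr8:70700099-70700119, plus strand: gcatgcgcGGACTagctgcgg

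The last 5 are among the 6 positions in at least 4 KO lists, shown because the KO cells lack the methyltransferase. The other 1, in the 3′ UTR of H1f0, a linker histone gene, tied at 4 KO lists and came last in genomic order. Of the 5 shown, only the Ier5l site was also in a comparison list.
Epop, chr11:97628154-97628174, minus strand: tgagcgtcGGACCtcttctac
Ier5l, chr2:30472974-30472994, minus strand: cgcttcgaGGACTtctgcccg
Sfn, chr4:133601069-133601089, minus strand: gacgctgtGGACAgccgacag
Jund, chr8:70700137-70700157, plus strand: ctctttcgAGACTcggtgccc
Rhob, chr12:8499363-8499383, minus strand: ttctcggtGGACAgcccggac

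All 8 sites without a KO list carried GGACC or GGACA, and none carried GGACT, the motif that was the most frequent in the comparison lists. All 10 tools listed the Exosc6 site at chr8:111057482, which lies in the 3′ UTR, 292 nt after the first base of the stop codon. Exosc6 encodes a subunit of the RNA exosome, and its only exon lies within an exon of Aars, an alanyl-tRNA synthetase gene on the same strand. Of its 20 positions, 16 were listed for an Exosc6 transcript and 17 for an Aars transcript, so the reads behind both Exosc6 sites cannot be assigned to the single-exon gene. The sites in Rrs1, a ribosome biogenesis factor, in Sox2, a pluripotency factor, and in Jund, an AP-1 subunit, were each listed by 9 tools and lay in the coding sequence. The Ccnq site, in a cyclin gene, was listed by 9 tools and lay in the 3′ UTR. The sites in Ier5l, an immediate early response gene, and in Rpp25, a subunit of RNase P, were listed by 8 tools and lay within 10 nt of the start of the stop codon.

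In WT lists 1413 positions in 161 genes were found (79.6% of the 1775, against 80.4% of all listed positions). KO lists held 1112 positions in 165 genes (62.6%, against 67.1%). Of the positions, 750 were in WT or comparison lists and in KO lists, 663 were in no KO list (37.4%, against 32.9%) and 362 were only in KO lists (20.4%, against 19.6%). The comparison lists held 121 positions in 37 genes, or 6.82% (5.74% to 8.09%) of the positions in single-exon genes, against 1.97% of all positions. All 121 were also in a WT list, against 99.7% of all comparison positions. A KO list held 97 of the 121 as well (80.2%, 72.2% to 86.3%), against 76.5%, so this share was near the background. All 3 comparison lists shared 28 of them (23.1%, 16.5% to 31.4%), against 16.4%.

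The share of a list that fell in single-exon genes differed between tools and was higher in the comparison lists. It was 3.51% for Nanocompore (74 positions), 4.74% for DiffErr (83) and 5.29% for DRUMMER (67). In WT lists it ranged from 1.04% for Nanom6A to 3.07% for xPore, and ELIGOS (2.38%), Epinano (1.71%), m6Anet (1.42%), MINES (1.34%) and Tombo (1.16%) lay between them. In KO lists it ranged from 0.859% for MINES to 1.71% for xPore. The intervals of the 3 comparison lists lay above those of every KO list and of every WT list except that of xPore. The lists also differed in length. The comparison lists held 1267 to 2107 positions over all genes, against 5368 (xPore) to 75219 (Tombo) in WT lists. The shortest WT lists, xPore and ELIGOS (5971), had the highest WT shares. The KO list of ELIGOS, with 1548 positions, was at 1.23%. Whether the share goes with the length or the kind of a list was not tested.

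**Figure D1:**
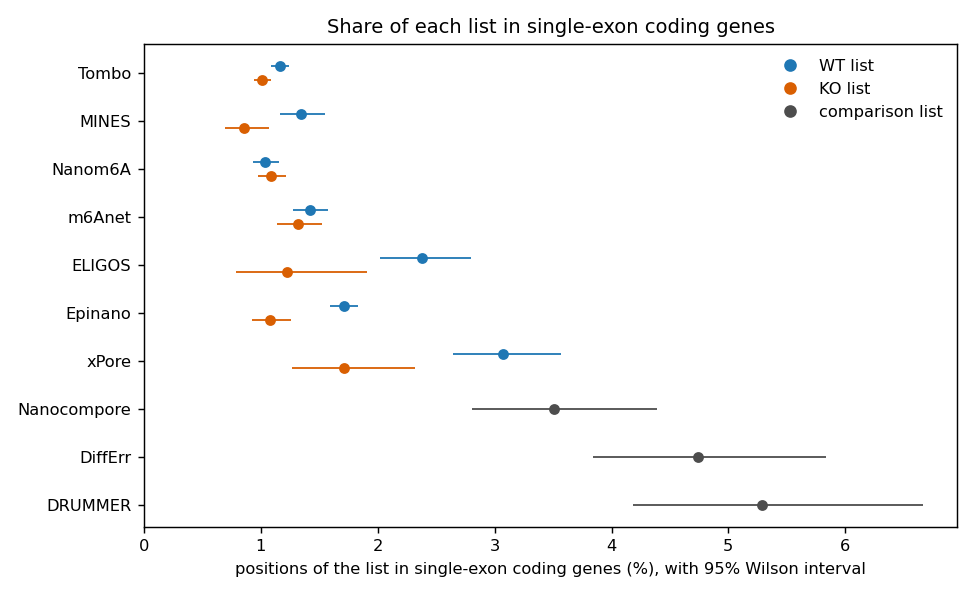
Share of each tool's list that lay in single-exon coding genes, in percent, with the 95% Wilson interval as a bar; WT lists are blue, KO lists orange and comparison lists grey. The comparison lists lie between 3.51% and 5.29%, and the KO lists between 0.859% and 1.71%.

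The number of KO positions relative to WT positions depended on the tool. Merged over the 7 tools with both lists, the ratio was 0.787 (0.727 to 0.852) in single-exon genes and 0.834 in multi-exon genes. The intervals of these ratios take the WT and KO counts as independent, although 750 of the merged positions were in both. ELIGOS had 142 WT and 19 KO positions, a ratio of 0.134 (0.0782 to 0.217), against 0.257 in multi-exon genes. Epinano had 761 and 163, a ratio of 0.214 (0.180 to 0.254), against 0.340. xPore had 165 and 41, a ratio of 0.248 (0.172 to 0.352), against 0.449. MINES had 180 and 81, a ratio of 0.450 (0.342 to 0.588), against 0.706. For these 4 tools and for Tombo (0.787, 0.711 to 0.871, against 0.906) the ratio was lower in single-exon genes and its interval did not reach the multi-exon value. Without genes that have a near-identical copy the Tombo ratio was 0.818 (0.732 to 0.914), an interval that held it. For m6Anet (0.538, 0.446 to 0.647, against 0.581) and Nanom6A (0.871, 0.744 to 1.02, against 0.827) the interval held it. Within the 131 genes that had positions in both libraries, the merged ratio was 0.746 (0.686 to 0.811).

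The tools also differed in how many listed the same position. Of the 1413 positions in WT or comparison lists, 716 were listed by 1 of the 10 tools (50.7%, against 65.3% of all such positions) and 100 by at least 6 tools (7.08%, 5.85% to 8.53%, against 1.98%). The 100 well-supported positions lay in 33 genes, 64 of them in the 3′ UTR, 34 in the coding sequence and 2 in the 5′ UTR. In multi-exon genes such positions lay in the 3′ UTR at 69.2%, in the coding sequence at 30.1% and in the 5′ UTR at 0.666%. The motif of the 100 positions was GGACT at 48, against 48.9% in multi-exon genes. It was GGACA at 23 (against 23.0%), GGACC at 15 (against 9.70%) and AGACT at 9 (against 15.2%). A KO list held 75 of them, and 25 of the 100 were in no KO list (17.5% to 34.3%), which was near the 27.2% of all positions listed by at least 6 tools. In KO lists at least 4 of 7 tools shared only 6 positions (0.540%, 0.248% to 1.17%, against 0.637%).

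All 10 tools listed 7 positions. They were the Exosc6 site above, 3 sites in the 3′ UTR of Epop, 1 in the 3′ UTR of Jund, 1 in the 3′ UTR of Rbmxl2, an RNA-binding motif gene, and 1 in Rpp25 11 nt before the stop codon. The other 6 were listed by 2 or 3 of the 7 tools in KO, among them Nanom6A at 5 and Tombo at 5.

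Density was measured as listed positions per 1000 RRACH motifs of 1 principal transcript per gene, over genes with at least 1 position in any list. This took in 192 single-exon genes with 5097 motifs and 9876 multi-exon genes with 487450 motifs. In WT lists the density was 277 positions per 1000 motifs in single-exon genes and 249 in multi-exon genes, a ratio of 1.11 (1.06 to 1.16). In KO lists it was 217 and 208, a ratio of 1.04 (0.991 to 1.10). In comparison lists it was 23.7 and 6.13, a ratio of 3.87 (3.24 to 4.64). The comparison interval lay above 1, but it takes motifs as independent and does not cover the spread between genes. Of the 121 comparison positions in single-exon genes, 92 lay in 17 genes. The WT ratio moved either way with the alternative. It was 1.02 (0.974 to 1.08) without genes that have a near-identical copy, 1.03 (0.979 to 1.09) within 1000 nt of the 3′ end and 0.968 (0.919 to 1.02) per kilobase of transcript. It was 1.25 (1.19 to 1.30) over genes with positions in both libraries, 1.27 (1.20 to 1.33) without Tombo and 1.57 (1.47 to 1.69) with at least 2 tools per position. By tool it ran from 1.06 (0.955 to 1.17) for Nanom6A to 3.07 for xPore, and Nanom6A fell to 0.735 (0.644 to 0.839) without genes that have a copy. The KO interval, which held 1, left it in either direction, at 0.909 (0.857 to 0.965) per kilobase, 1.12 (1.04 to 1.20) without Tombo and 1.20 (1.08 to 1.35) with at least 2 tools. By tool the KO ratio ran from 0.862 for MINES to 1.70 (1.25 to 2.31) for xPore. That of Nanom6A was 1.12, with an interval from just above 1 to 1.25, and turned to 0.838 (0.731 to 0.961) without genes that have a copy. The comparison ratio stayed between 3.34 and 5.32 under every alternative that was run on the merged lists, including 3.42 without Epop, the gene with the most positions. By tool it was 3.54 for Nanocompore, 4.83 for DiffErr and 5.43 (4.25 to 6.93) for DRUMMER.

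These pooled ratios weight a gene by its motifs, and the median gene gave another order. Among genes with at least 20 motifs, 107 single-exon and 8384 multi-exon, the median density per gene was 233 and 268 in WT lists and 185 and 205 in KO lists, so the median single-exon gene was below the median multi-exon gene in both. In the comparison lists the median and the upper quartile were 0 in both classes.

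The share of listed genes with any comparison position differed less between the classes. It was 19.3% (14.3% to 25.4%) of the 192 single-exon genes and 15.1% (14.4% to 15.8%) of the multi-exon genes, and these intervals overlap. Over all annotated genes, listed or not, the order was the opposite, with 37 of 1349 single-exon genes (2.74%) and 1491 of 20322 multi-exon genes (7.34%). In the single-exon class, 92 of the 121 comparison positions lay in 17 genes with at least 3 each, 9 genes had 2 and 11 genes had 1. Genes with at least 3 thus held 76.0% (67.7% to 82.8%) of the comparison positions, against 49.9% (48.1% to 51.7%) in multi-exon genes. They were 45.9% (31.0% to 61.6%) of the genes with any, against 23.1% (21.1% to 25.3%).

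In the coding sequence, the comparison lists held 20.6 positions per 1000 motifs (15.3 to 27.7) in single-exon genes and 4.19 in multi-exon genes, a ratio of 4.92 (3.63 to 6.68). Multi-exon coding sequence was then split by its distance from the nearest exon junction. Up to 100 nt from a junction the density was 2.08, from 100 to 200 nt 13.0, from 200 to 400 nt 14.7, and over 400 nt 6.78. In coding sequence of the last exon it was 14.6, and in that of other exons 2.30. Single-exon coding sequence was thus 9.91 (7.24 to 13.6) times as dense as multi-exon coding sequence up to 100 nt from a junction, and 1.41 (1.03 to 1.92) times as dense as that of last exons. For Nanocompore alone the last-exon ratio was 1.46 (0.996 to 2.13), whose interval held 1.

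The merged WT and KO lists gave other orders. In WT lists single-exon coding sequence held 353 positions per 1000 motifs. Multi-exon coding sequence held 265 up to 100 nt from a junction, 309 from 100 to 200 nt and 284 from 200 to 400 nt. It held 183 over 400 nt and 335 in last exons. The WT ratio to coding sequence up to 100 nt from a junction was 1.33 (1.26 to 1.41), and to last exons 1.05 (0.991 to 1.12). By tool the first ran from 0.999 for Nanom6A to 7.69 for xPore. In KO lists single-exon coding sequence held 265. Multi-exon coding sequence held 240 up to 100 nt from a junction, 237 from 100 to 200 nt and 198 from 200 to 400 nt. It held 145 over 400 nt and 271 in last exons. The merged KO ratio of single-exon coding sequence to that up to 100 nt from a junction was 1.11 (1.03 to 1.19). By tool, this KO ratio was 2.93 for xPore, with an interval that reached up to 4.38 and did not hold 1. It was 1.12 (1.02 to 1.24) for Tombo, and the intervals of the other 5 tools held 1. The xPore KO list thus differed from the merged one. Against last exons the intervals of all 7 tools held 1, at 0.959 to 1.24. DRS reads start at the 3′ end of the RNA. In KO lists the density in single-exon genes was 317 in the last 250 nt of the transcript and 83.3 over 2000 nt from its end. In multi-exon genes the corresponding densities were 282 and 145. Among coding sequence within 1000 nt of the 3′ end, a split chosen after seeing the data, the comparison density was 37.9 (26.2 to 54.5) in single-exon genes, 6.68 up to 100 nt from a junction and 22.6 in last exons. Over 100 nt from a junction it was 28.7 (25.5 to 32.3) in the same window, a value within the single-exon interval. The comparison ratios to coding sequence near a junction and in last exons were 5.67 (3.82 to 8.40) and 1.67 (1.14 to 2.46). For Nanocompore alone the second was 1.62 (0.992 to 2.64). The merged WT lists gave 1.12 (1.04 to 1.21) and 1.07 (0.987 to 1.15), and the merged KO lists 0.938 (0.851 to 1.03) and 0.987 (0.895 to 1.09). By tool, the first KO ratio was 1.94 (1.12 to 3.36) for xPore and 1.66 (0.786 to 3.53) for ELIGOS, and the intervals of all tools but xPore held 1.

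**Figure D2:**
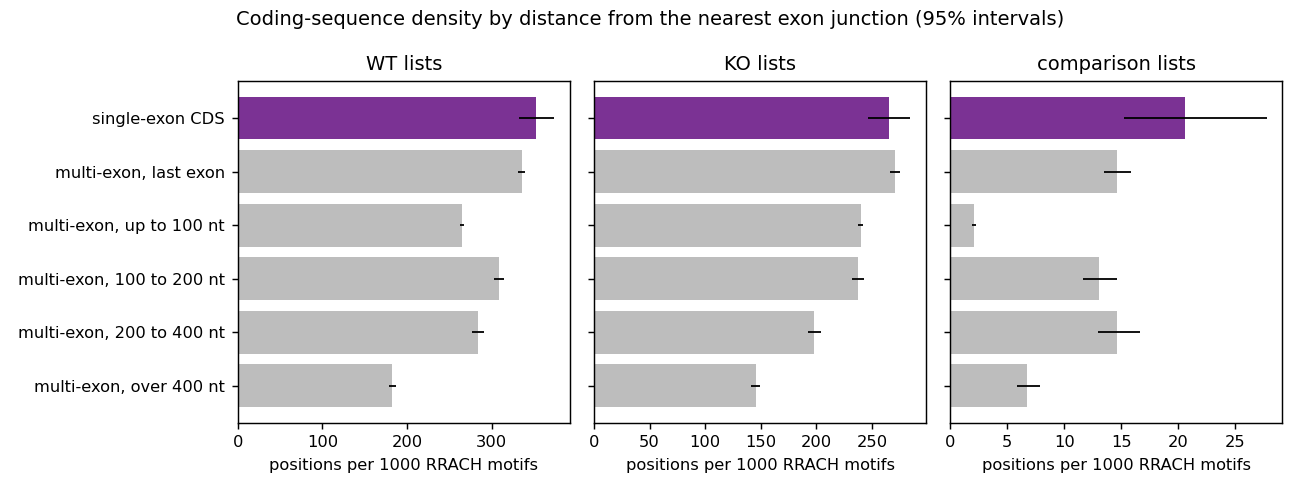
Listed positions per 1000 RRACH motifs in coding sequence, with 95% intervals, for single-exon genes (purple) and for multi-exon coding sequence in the last exon or at 4 distances from the nearest junction (grey), with WT, KO and comparison lists in separate panels and on separate scales. In the comparison lists the density is 2.08 up to 100 nt from a junction and 20.6 in single-exon coding sequence. It is 265 and 353 in the merged WT lists, and 240 and 265 in the merged KO lists.

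In the merged WT and KO lists the coding sequence of single-exon genes was denser per RRACH motif than the 3′ UTR. The WT lists held 353 positions per 1000 motifs in the coding sequence and 253 in the 3′ UTR, a ratio of 3′ UTR to coding sequence of 0.718 (0.657 to 0.785). Tombo at 0.717 (0.634 to 0.810) and Epinano at 0.788 (0.690 to 0.899) lay below 1, whereas the WT intervals of the other 5 tools held 1. Without genes that have a copy, Nanom6A was at 1.44 (1.09 to 1.91) and MINES at 0.637 (0.462 to 0.877), on opposite sides of 1. The KO lists held 265 and 210, a ratio of 0.792 (0.713 to 0.880). Per kilobase of transcript the KO ratio was 0.930 (0.825 to 1.05), an interval that held 1. By tool, the KO ratio was 0.715 (0.621 to 0.823) for Tombo, 0.513 (0.329 to 0.802) for MINES and 0.473 (0.246 to 0.913) for xPore. The KO intervals of the other 4 tools held 1, among them that of Epinano at 1.17 (0.855 to 1.61). Without genes that have a copy, the xPore KO interval held 1, at 0.507 (0.251 to 1.02). That of ELIGOS then did not, at 0.337 (0.117 to 0.968). The comparison lists held 20.6 and 30.3, a ratio of 1.47 (1.01 to 2.13). This interval held 1 in 6 of the alternatives, among them 1.24 (0.835 to 1.83) without genes that have a near-identical copy and 1.17 (0.761 to 1.81) within 1000 nt of the 3′ end. It also held 1 in each comparison list by itself, at 1.28 (0.797 to 2.04) for Nanocompore, 1.43 (0.908 to 2.24) for DiffErr and 1.39 (0.841 to 2.29) for DRUMMER. In multi-exon genes the corresponding ratios were 0.941, 0.839 and 2.26. Of the 121 comparison positions, 76 lay in the 3′ UTR, 42 in the coding sequence and 3 in the 5′ UTR.

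The 200 nt on either side of the stop codon held 1017 of the 5097 RRACH motifs of single-exon genes (18.9% to 21.1%). They held 34.0% of WT positions, 32.1% of KO positions and 47.1% (38.4% to 56.0%) of comparison positions. In multi-exon genes the shares were 12.6% of motifs, 22.5% of WT, 21.1% of KO and 51.6% (49.8% to 53.3%) of comparison positions, so the comparison share of single-exon genes was near that of multi-exon genes. In the 200 nt from the stop codon onwards, the comparison density was 72.8 (53.3 to 98.8) in single-exon genes and 37.1 in multi-exon genes, and from 200 to 400 nt it was 61.3 (41.2 to 90.3) and 18.9. In the 200 nt before the stop codon it was 39.3 (25.6 to 59.9) and 14.6. In KO lists the same 3 windows held 360, 307 and 338 positions per 1000 motifs in single-exon genes and 353, 295 and 343 in multi-exon genes, which lay within the single-exon intervals. In WT lists they held 465, 400 and 479 in single-exon genes and 480, 396 and 412 in multi-exon genes. Of these multi-exon values only the last, before the stop codon, lay outside the single-exon interval (436 to 523).

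**Figure D3:**
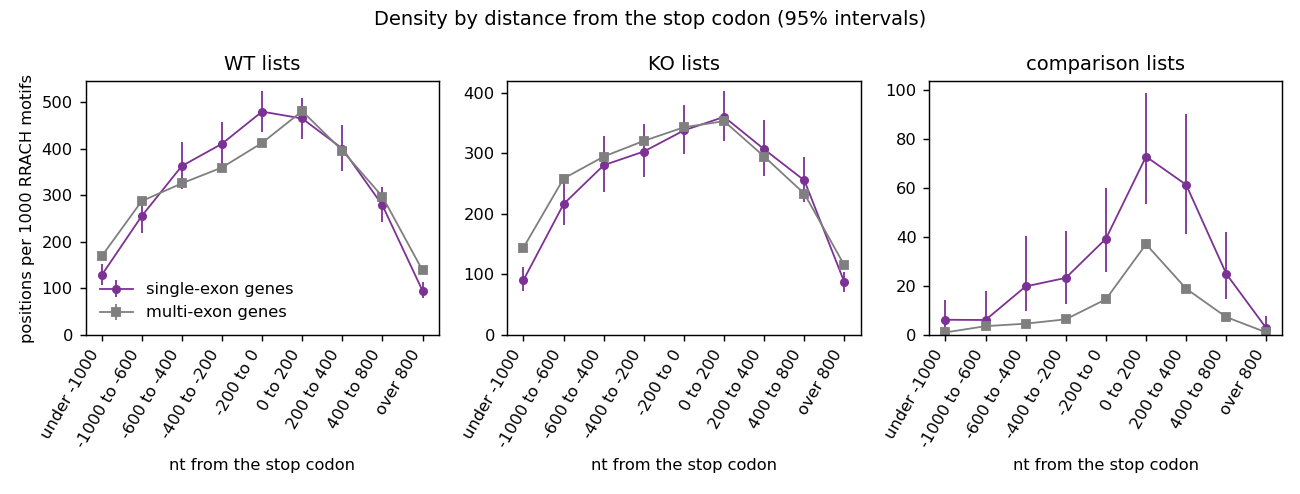
Listed positions per 1000 RRACH motifs by distance from the first base of the stop codon in nt (negative before it), with 95% intervals, for single-exon genes (purple circles) and multi-exon genes (grey squares) in WT, KO and comparison lists. In the comparison lists both classes peak in the 200 nt after the stop codon, at 72.8 and 37.1. The WT curves lie close together there, at 465 and 480, and so do the KO curves, at 360 and 353.

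The 5-mers GGACT (50 positions), GGACA (26 positions) and GGACC (19 positions) together made up 95 of the 121 comparison positions (78.5%), against 64.4% (62.7% to 66.1%) in multi-exon genes and 29.1% of the RRACH motifs of single-exon genes. GGACT alone made up 41.3% (32.9% to 50.2%), against 34.0% of comparison positions in multi-exon genes and 9.77% of the RRACH motifs of single-exon genes. In WT lists it made up 17.6% (15.7% to 19.7%), against 11.9% in multi-exon genes, and in KO lists 13.5% (11.6% to 15.6%), against 9.79%. In WT and KO lists GGACT was thus more frequent in single-exon genes by more than counting error, whereas in the comparison lists the interval held the multi-exon value. GGACT was also more frequent among the RRACH motifs of single-exon genes (9.77% against 7.43%). AGACT made up 7.44% (3.96% to 13.5%) of comparison positions in single-exon genes and 19.9% in multi-exon genes. AAACA and AAACC were at 0 of 121, which allows a share of up to 3.08%.

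A gene held a median of 8 positions, with a highest value of 31. At least 10 positions were found in 77 genes and 1 position in 17. Of the 131 genes with positions in both libraries, 81 had more in WT lists, 24 had more in KO lists and 26 had equal numbers. The same split is not given here for multi-exon genes.

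Epop (ENSMUSG00000043439), which encodes a protein that binds Elongin BC and Polycomb repressive complex 2, held the most positions. It lies on the minus strand at chr11:97627389-97629702. Of its 31 positions, WT lists held 29, KO lists 29 and comparison lists 15. The comparison positions were 13 for Nanocompore, 11 for DiffErr and 7 for DRUMMER, and 14 of the 15 were also in a KO list. Its KO positions came mostly from Nanom6A, with 25, and Tombo, with 12, whereas ELIGOS listed 12 in WT and 2 in KO, and Epinano 11 and 0. The numbers of WT and KO positions were therefore equal in Epop although it led the comparison lists.

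Sox2 (ENSMUSG00000074637), at chr3:34650405-34652461, held 28 positions, 26 in WT lists, 22 in KO lists and 4 in comparison lists. Its KO positions were 18 for Nanom6A, 8 for Tombo, 3 for m6Anet and 2 for xPore. Of its positions 19 lay in the 3′ UTR and 9 in the coding sequence. Sox4, another member of the SOX list, held 1 WT and 7 KO positions, and the 2 genes were the only ones listed of 6 single-exon SOX genes.

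The AP-1 genes, which encode the subunits of a dimeric transcription factor, were all listed and differed from each other. Jund (ENSMUSG00000071076) held 16 WT positions, 16 KO positions and 6 comparison positions. Jun (ENSMUSG00000052684) held 24 WT and 2 KO positions and no comparison position, and its WT positions came from Epinano (20), Tombo (10) and MINES (3). Junb (ENSMUSG00000052837) held 11 WT and 0 KO positions, from Tombo (8), Epinano (7) and MINES (2). No tool other than Tombo, MINES and Epinano listed Jun or Junb in WT, and m6Anet, for which the methods ask for at least 20 reads, listed neither. Whether Jun and Junb had enough KO reads is unknown.

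The 4 immediate early genes held more WT than KO positions in every case, as did 81 of the 131 single-exon genes with positions in both libraries. The numbers were 17 and 5 for Ier5, 17 and 9 for Ier5l, 19 and 12 for Ier2, and 21 and 18 for Rhob, a small GTPase. Ier2 had 5 comparison positions, Rhob 3, Ier5l 2 and Ier5 0. The heat shock gene Hspa1b held 8 WT and 1 KO positions, and its near-identical copy Hspa1a leaves the origin of these reads uncertain.

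Of the 10 genes with the most positions, Purb, a single-stranded nucleic acid binding protein, held 23 WT and 3 KO positions, and Haspin, a histone H3 kinase, held 23 and 9. Ddx28, a mitochondrial RNA helicase, went the other way with 16 WT and 23 KO positions, as did H1f0, a linker histone, with 16 and 22. None of these 4 genes had a comparison position. Irf2bpl, a transcriptional regulator, held 21 and 13, and Mgat2, an N-glycan transferase, held 19 and 14.

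**Figure D4:**
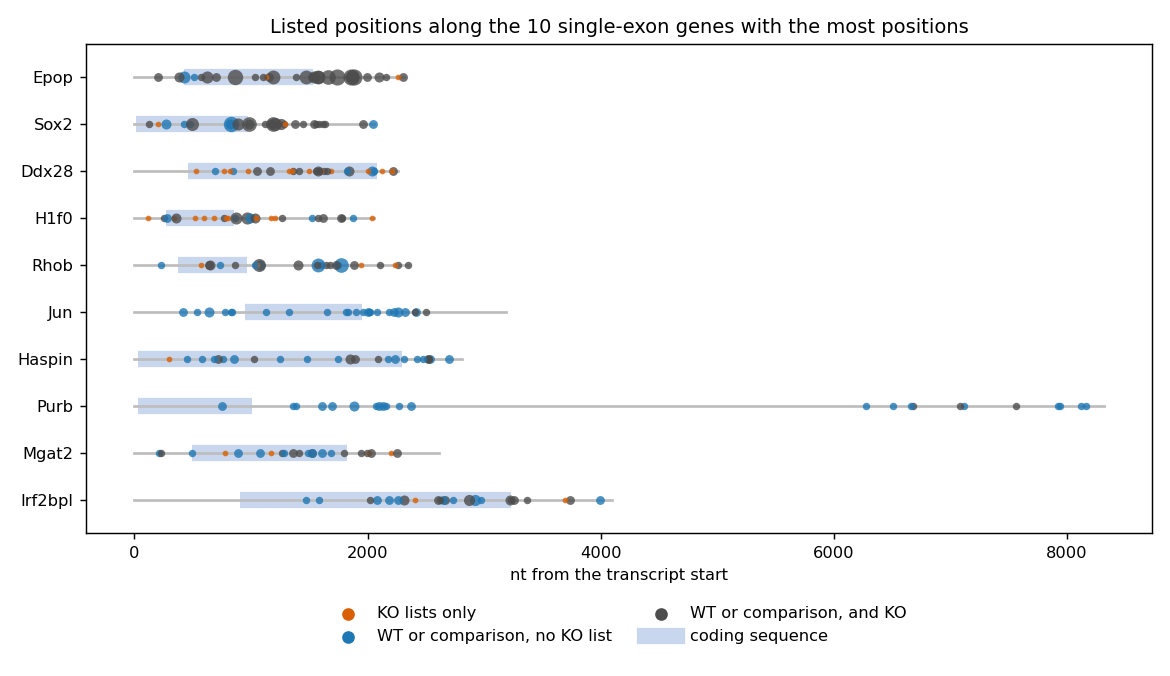
Positions along the transcripts of the 10 single-exon genes with the most positions, in nt from the transcript start, with the coding sequence as a pale bar. Points are grey where KO lists also held the position, blue where no KO list did and orange where only KO lists did, and their size grows with the number of tools in WT or the comparison. Epop and Sox2 are mostly grey with large points near the stop codon, whereas Jun and Purb are mostly blue with small points.

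Beside Epop and the Exosc6 locus, the comparison lists were led by Pcbp1, H2afx and Rpp25 with 7 positions each. Pcbp1, which encodes a poly(C)-binding protein, held 11 WT and 11 KO positions, and all 7 of its comparison positions were in KO lists. H2afx, a histone H2A variant, held 8 WT and 8 KO positions, all in the 3′ UTR, and all 7 comparison positions were in KO lists. Nanom6A listed all 11 KO positions of Pcbp1 and all 8 of H2afx. Rpp25 held 15 WT and 14 KO positions. Jund followed with 6 comparison positions, and Ier2, Imp3, a small nucleolar ribonucleoprotein, and 0610012G03Rik with 5 each. Imp3 has a near-identical copy elsewhere. Gtsf1l, Sox2 and Sephs2 had 4 each, and Rrs1, Eid2, Sf3b5, Ccnq and Rhob had 3 each. Ccnq was the only one of the 17 genes with none of its comparison positions in a KO list.

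**Figure D5:**
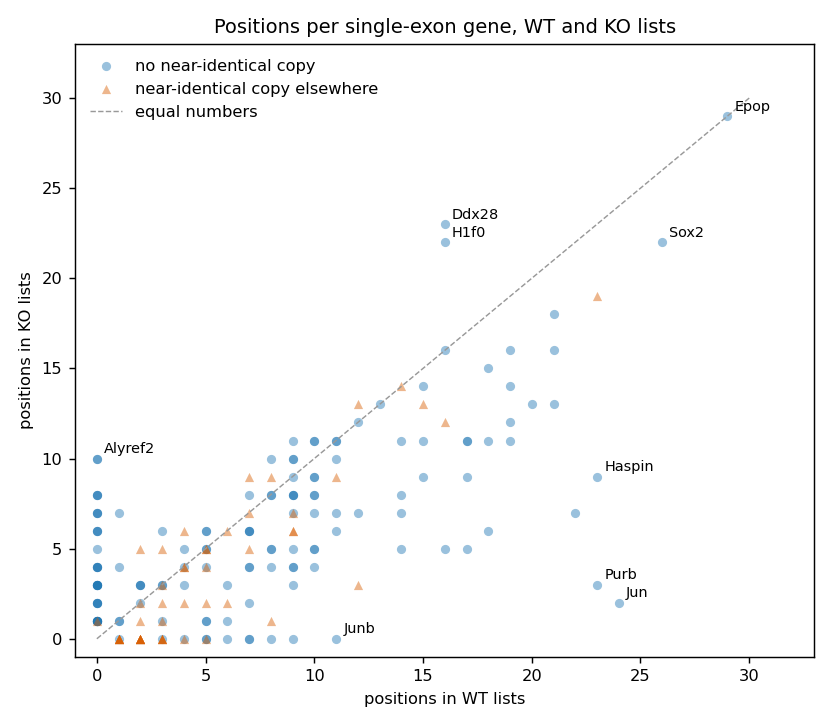
Number of positions per single-exon gene in WT lists (horizontal) and KO lists (vertical), with genes that have a near-identical copy as orange triangles and the others as blue circles; the dashed line marks equal numbers and darker symbols are overlapping genes. Epop lies on the line at 29 and 29, Jun, Purb and Junb far below it, and Ddx28 and H1f0 above it.

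The share of gene list members with a listed position is to be read against 14.5% of all single-exon coding genes. Histone genes were listed in 24 of 65 single-exon members, with 75 WT, 52 KO and 8 comparison positions. Of the 24 genes, 18 have a near-identical copy, so that their reads cannot be placed with certainty. H2afx held 7 of the 8 comparison positions and H1fx, a linker histone, the other 1. The transcripts of replication-dependent histones mostly end without a poly(A) tail, and the RNA here was poly(A) selected. Of the 30 genes with WT but no KO position, 16 were histones, against 24 of all 195 listed genes and 1 of the 34 genes with KO but no WT position. Among the 52 KO positions, H1f0 held 22 and Hist1h1c, another linker histone, held 11.

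Claudins, which form tight junctions, were listed in 3 of 4 genes, with 11 WT and 11 KO positions in Cldn4, 5 and 5 in Cldn3, and 5 and 0 in Cldn5. Both C/EBP genes were listed, Cebpb with 7 WT and 2 KO positions and Cebpd with 0 and 7. Of 11 genes in a list of other transcription factors, Foxd3 held 0 and 4. Nrarp, which that list also holds although it is an ankyrin-repeat regulator of Notch signalling and not a transcription factor, held 4 and 4. In the list of chromatin and ubiquitin genes, 2 of 8 were listed, Ubqln2 with 10 WT and 5 KO positions and Klhl9 with 0 and 1. The 18 single-exon protocadherin beta genes had no listed position.

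A near-identical copy, taken as at least 95% identity over at least 50% of the transcript, was found for 52 of the 195 genes, and these held 305 of the 1775 positions. Reads from such genes cannot be told apart with certainty from reads of the copy. The comparison share was 7.28% (6.06% to 8.72%) in genes without a copy and 4.59% (2.75% to 7.56%) in genes with one. In 28 pairs the other gene was a multi-exon gene, and 350 RRACH motifs had the same surrounding sequence in both. Of these, 189 were listed in the single-exon gene (54%) and 280 in the multi-exon gene (80%). Both genes listed 174 of the 189 (92.1%, 87.3% to 95.1%), a share to be read against the 80%. All 10 listed ribosomal protein copies were of this kind or near-identical to another gene, with 68 WT, 63 KO and 2 comparison positions. Gm4737, a copy of Ahcy at 99.7% identity, held 23 WT and 19 KO positions and 2 comparison positions. Of the 22 motifs it shares with Ahcy, 21 were listed in Gm4737, 12 in Ahcy and 12 in both. Nanom6A had 136 of its 348 WT positions in genes with a copy, while ELIGOS had 10 of 142.

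A further 37 positions in 4 genes lay in an exon of another annotated gene on the same strand. Besides the 20 of Exosc6, 15 were in Rsc1a1, whose exon lies within Ddi2, and none of those 15 was listed for an Rsc1a1 transcript while all 15 were listed for Ddi2. Leaving out these positions gave a comparison density ratio of 3.72 (3.09 to 4.48) to multi-exon genes.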

How the data were processed

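DRS of poly(A) RNA was done on 1 WT and 1 Mettl3 KO library of mouse embryonic stem cells. Reads were basecalled by the authors and mapped with Minimap2 to GENCODE M18 transcripts. They ran each tool on sites in RRACH motifs with at least 5 reads (20 for m6Anet) and deposited 17 lists of genome positions on GRCm38 (mm10 per the labels). The methods set a cut-off per tool where the sum of its F1 scores against miCLIP and miCLIP2 sites was highest. The deposited Tombo lists hold more positions than the study counted for any tool at that cut-off, so the lists were not taken here to be at it, and the cut-off they used is not given in the sources used here.

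Positions were counted here once per chromosome, start and strand. Genes came from GENCODE M21 on the same build, and 1647 of 1664 positions with a transcript identifier carried one of the gene's own transcripts. The principal transcript stood for a gene, and 1770 positions (99.7%) lay on one of its RRACH motifs. Copies were found with BLAST 2.17.0. Shares have Wilson intervals and ratios of KO to WT an exact binomial interval that takes both counts as independent. Density ratios have a log-normal interval that takes motifs as independent. The interval functions were tested on simulated data in which all counts were drawn independently. Sequences were read from the NCBI GRCm38 genome.

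Members, gene lists and alternatives were chosen with earlier results of these data known. The text names the 10 genes with the most positions, the 8 positions with most tools and no KO list, the 5 with most KO lists, genes with at least 3 comparison positions and listed members of the gene lists, with ties in genomic order. At the last of the 8 positions, 3 positions tied at 8 tools, and at the last of the 5, 5 positions tied at 4 KO lists. Other named genes and sites were chosen after their values were seen. Python 3.11.15, numpy 2.4.6, scipy 1.17.1, pysam 0.24.0 and matplotlib 3.10.9 were used.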

Additional observations from a re-analysis of the deposited data

How the results depend on the processing

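No paired analysis was possible because each condition had 1 library, and no replicate could be left out. Ratios of density are single-exon to multi-exon unless stated. Without Tombo, the KO positions numbered 666, the ratio of KO to WT was 0.596, and the density ratios were 1.27 for WT and 1.12 for KO. With at least 2 tools per position, 693 WT, 299 KO and 75 comparison positions were left, the ratio of KO to WT was 0.431, the density ratios were 1.57, 1.20 and 5.32, and the WT ratio of 3′ UTR to coding sequence was 0.785. Without the single-exon genes that have a near-identical copy, the density ratios were 1.02 for WT and 0.985 for KO. Within 1000 nt of the 3′ end, the WT density ratio was 1.03 and the WT ratio of 3′ UTR to coding sequence 0.621. Per kilobase, the WT density ratio turned to 0.968 (0.919 to 1.02) and the KO ratio was 0.909, with ratios of 3′ UTR to coding sequence of 0.843 for WT and 0.930 for KO. After seeing the data, 2 alternatives were added. With only genes, in both classes, that had positions in WT and KO lists, the density ratios were 1.25 for WT, 1.12 for KO and 4.50 for the comparison, and the WT ratio of 3′ UTR to coding sequence was 0.789. Without genes with a copy and positions in another gene, they were 1.02 for WT, 0.985 for KO and 3.73 for the comparison. The KO density interval, which held 1, excluded it per kilobase, without Tombo, with at least 2 tools and over genes in both libraries, and the comparison ratio of 3′ UTR to coding sequence, 1.47, had an interval that held 1 in 6 alternatives, with values from 1.17 to 1.47. The KO ratio of 3′ UTR to coding sequence per kilobase also had one (0.825 to 1.05). The causes were not tested. In 89 cases, some of them named above, the value stayed within the interval of the main one, or within 1.5 times for a count. The depth of each site is unknown and limits every comparison of a listed with an unlisted position.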

Other observations

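Several single-exon genes were listed in 1 library only. The 30 genes with WT but no KO position held 107 positions, at most 11 each, and the 34 genes with KO but no WT position held 138, at most 10 each. No count of multi-exon genes listed in 1 library only is given here. These numbers therefore cannot be called particular to single-exon genes. The genes listed only in WT were led by Junb (11), Plpp6, a lipid phosphatase (9), and Inafm2 (8), and 19 of the 30 have a near-identical copy. Those listed only in KO were led by Alyref2, an mRNA export factor paralog, and Fem1a, a ubiquitin ligase adaptor, with 10 each, and 1 of the 34 has such a copy. Reads per gene are unknown, so a difference in RNA level and a difference in coverage cannot be told apart from a difference in sites.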
